A study of Mus musculus with 2 samples.

Results

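The Notch pathway is a signalling route between neighbouring cells, and 10 of its genes and of the genes of the ductal plate were followed in the liver of day 13.5 mouse embryos: the receptors Notch1, Notch2, Notch3 and Notch4, the ligands Jag1, Jag2 and Dll4, the target gene Hes1, and the transcription factors Sox9 and Sox4. They were taken by symbol from the gene tables, and all 10 were found among 43346 annotated genes, each under 1 gene identifier. The 2 libraries were biological replicates of 1 group, liver tissue of healthy B6NCrl embryos at 13.5 days, pooled from males and females, with no genetic change, treatment or second condition in the labels. The input of a library was 10 ng of total RNA, above 200 nt in size. Both tissue samples carry the same donor entry, so the SDs given here (n = 2) cover no more than the variation of these samples, which may be technical, and no test between conditions was possible.

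A Notch receptor is bound by a ligand of the Delta or Jagged type on the adjoining cell, is cut first by an ADAM protease and then by gamma-secretase, and its freed inner part enters the nucleus, where it acts with RBPJ and Mastermind proteins on genes of the Hes and Hey families. In the liver, Jag1 in the mesenchyme around the portal vein acts through Notch2 on hepatoblasts, the common precursors of hepatocytes and bile duct cells, and loss of either gene in people causes Alagille syndrome, with too few bile ducts. Hepatoblasts that line the portal vein form the ductal plate, a sleeve of cells marked by Sox9, from which bile ducts arise later in gestation. In vessels, Dll4 and Notch4 belong to endothelial cells, and Notch3 belongs to the muscle cells and pericytes around them.

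The promoter windows given by RefSeq differed in composition among the receptors. The RefSeq promoter table (GRCm38.p6, 300 bases per window) held windows for 8 of the members, all but Hes1 and Sox9. The windows of Notch1 (26503773 to 26504072) and Jag2 (112929446 to 112929745), both on the minus strand, lie inside the annotated genes. They are downstream of the outermost annotated start, at 26516663 for Notch1 and 112929776 for Jag2. The 3 stretches below, trimmed to bases before every annotated start, are shown because Notch2 was the most abundant receptor, Notch4 had the fewest CpG dinucleotides of the member windows, and Sox4 alone held the core letters of an RBPJ motif. Capitals mark GGGCGG or its reverse complement CCGCCC, a GC box, in Notch2, and TGGGAA, the RBPJ core, in Sox4. Notch4 was searched for the GC box and held none, so it has no capitals.
Notch2, chr3:98013288-98013526, plus strand: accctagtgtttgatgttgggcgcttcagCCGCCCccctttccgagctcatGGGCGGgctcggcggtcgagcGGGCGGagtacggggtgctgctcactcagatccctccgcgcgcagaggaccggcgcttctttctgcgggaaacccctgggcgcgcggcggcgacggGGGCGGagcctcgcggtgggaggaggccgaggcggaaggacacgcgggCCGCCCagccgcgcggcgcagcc
Notch4, chr17:34564045-34564267, plus strand: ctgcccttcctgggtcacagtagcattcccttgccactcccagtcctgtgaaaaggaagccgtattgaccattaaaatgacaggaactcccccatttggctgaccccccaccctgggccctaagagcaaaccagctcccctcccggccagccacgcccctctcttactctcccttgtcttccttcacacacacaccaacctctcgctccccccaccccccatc
Sox4, chr13:28953714-28953949, minus strand: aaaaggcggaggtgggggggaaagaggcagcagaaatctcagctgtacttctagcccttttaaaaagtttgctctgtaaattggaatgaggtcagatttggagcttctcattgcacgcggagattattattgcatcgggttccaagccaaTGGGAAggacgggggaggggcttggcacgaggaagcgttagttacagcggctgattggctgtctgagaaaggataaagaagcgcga

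The Notch2 stretch of 239 bases held 34 CpG dinucleotides and 5 GC boxes, with a GC content of 74.1%. The Notch4 stretch of 223 bases held 4 CpG dinucleotides, with a GC content of 59.2%. Over whole windows, CpG dinucleotides numbered 41 for Notch2, 25 for Notch3, 23 for Notch1 and 5 for Notch4, against a median of 7 over 32851 windows. Searched on both strands, the GC box was in the windows of Notch1, Notch2, Notch3, Dll4 and Jag2, 5 of 8 member windows, and in 35.7% of all windows. The RBPJ core was in 1 of 8 member windows and in 25.6% of all windows. A match is a run of letters and no evidence of binding.

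Replicate 1 held 39182457 and replicate 2 held 37432977 expected counts on annotated genes, where an expected count is the authors' estimate of the reads of a gene. The limit set by a count of 0, namely 3 counts, equalled 0.0397 TPM in replicate 1 and 0.0441 TPM in replicate 2 at a length of 2000 nt, which covers counting error only. The libraries differed beyond sampling noise, with a chi-square statistic of 23.05 per degree of freedom over 15997 genes. They are therefore not 1 library given 2 times. This statistic cannot tell separate samples from repeat libraries of the same RNA. Each of the 8 hepatoblast markers (median 187.05 TPM) and each of the 6 erythroid markers (median 815 TPM) passed 1 TPM in replicate 1 and in replicate 2, so the libraries carried the markers of the labelled tissue and of the blood cells formed in it. TPM, the level of a transcript relative to all transcripts of its library, is corrected for transcript length and can be compared between genes.

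All 10 members were detected in both libraries, at means between 0.115 and 5.73 TPM. In both libraries 6 of 10 reached 1 TPM, against 52.1% of 21474 protein-coding genes and 28.1% of all annotated genes. Their median log2(TPM + 0.1) was 0.50 ± 0.17 (SD, n = 2), and the median over protein-coding genes was 0.63. Hes1 was the highest member at 5.73 ± 0.601 TPM and stood above 64.0% of protein-coding genes. Jag2 was the lowest at 0.115 ± 0.0212 TPM and stood above 34.0% of them. In whole tissue, fewer cells of a type and less RNA per cell cannot be told apart.

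**Figure D1:**
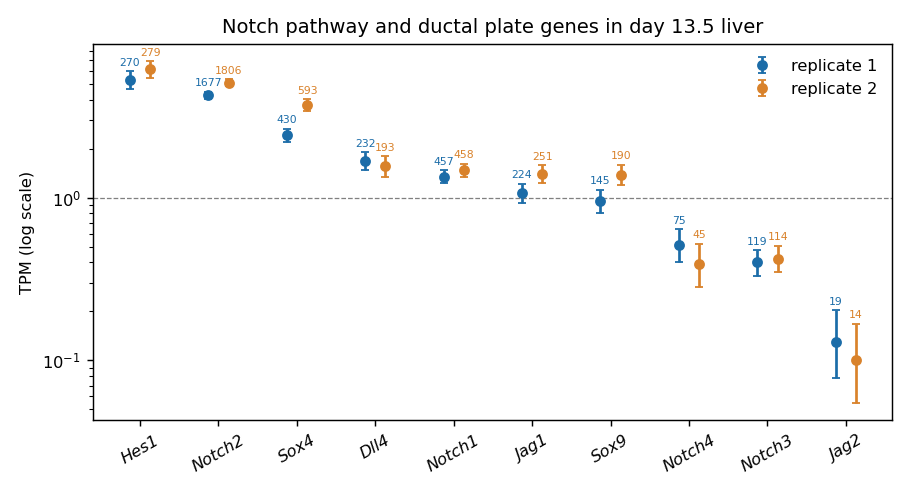
TPM of the 10 genes on a log axis, with points for replicate 1 and replicate 2, bars for exact 95% Poisson counting intervals and the rounded count printed above each point; the dashed line marks 1 TPM. Hes1, Notch2 and Sox4 stand highest, and Jag2 rests on 19 and 14 counts.

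Among the ligands, Dll4, Jag1 and Dll1 were present at similar low levels and Jag2 was far lower. Dll4 (ENSMUSG00000027314.6, chromosome 2, 119325784 to 119335962 on GRCm38, plus strand), the ligand of arterial and sprouting endothelium, had 1.68 TPM from 232 counts in replicate 1 and 1.56 TPM from 193 counts in replicate 2. Jag1 (ENSMUSG00000027276.7, chromosome 2, 137081456 to 137116644, minus strand), the ligand of portal mesenchyme, had 1.07 TPM from 224 counts and 1.40 TPM from 251 counts. The ranges of these genes did not overlap, and Dll4 had 1.57 times the TPM of Jag1 in replicate 1 and 1.11 times in replicate 2. By counts, which grow with length, Jag1 lay below Dll4 in replicate 1 and above it in replicate 2.

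Jag2 (ENSMUSG00000002799.5, chromosome 12, 112907819 to 112929776, minus strand), a second Jagged ligand, had 0.13 TPM from 19 counts and 0.10 TPM from 14 counts. Its exact 95% counting intervals ran from 0.0783 to 0.203 TPM and from 0.0547 to 0.168 TPM, so the libraries could not be told apart at this depth. Both counts lay above the limit of 3.

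The remaining Delta-type ligands were set beside them to give the make-up of the group. Dll1, which has a role in the segmentation of the embryo, had 1.16 TPM from 114.51 counts and 0.94 TPM from 92.86 counts. Dll3, a ligand that in mice acts mainly inside the producing cell, had 5 and 3 counts. Of the summed TPM of the 5 ligands, 4.09 in replicate 1 and 4.06 in replicate 2, Dll4 held 39.8% ± 1.88, Jag1 30.3% ± 5.88 and Dll1 25.8% ± 3.68 (SD, n = 2). Jag1 and Dll1 exchanged second place between the libraries, with 26.2% and 28.4% in replicate 1 and 34.5% and 23.2% in replicate 2.

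A gene related to the Delta ligands was far more abundant than any of them. Dlk1, a surface protein of hepatoblasts that lacks the domain by which Delta ligands bind Notch, stood at 444 ± 21.2 TPM from 21071 and 19970 counts, 95.3 ± 7.57 times the TPM of Notch2. The other non-canonical ligands, Dner and Dlk2, had 43 and 25 counts and 5 and 0 counts.

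The receptors were led by Notch2, which held most of their summed TPM. Notch2, the receptor of hepatoblasts in the biliary lineage (ENSMUSG00000027878.10, chromosome 3, 98013527 to 98150361, plus strand) had 4.26 TPM from 1677 counts in replicate 1 and 5.10 TPM from 1806 counts in replicate 2. Notch1 (ENSMUSG00000026923.11, chromosome 2, 26457903 to 26516663, minus strand), the receptor used widely in blood and vessels, had 1.35 TPM from 457.47 counts and 1.48 TPM from 458.02 counts. Every Notch2 value lay above every Notch1 value, and the ratio of their TPM within a library was 3.30 ± 0.205.

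Notch3 and Notch4 were lower than both, at below 1 TPM. Notch3 (ENSMUSG00000038146.7, chromosome 17, 32120820 to 32166852, minus strand), the receptor of vascular mural cells, had 0.40 TPM from 119.41 counts and 0.42 TPM from 113.77 counts. Notch4 (ENSMUSG00000015468.10, chromosome 17, 34564268 to 34588503, plus strand), an endothelial receptor, had 0.51 TPM from 75 counts and 0.39 TPM from 45 counts. Their ranges overlapped, so neither was above the other beyond its spread.

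Of the summed receptor TPM, 6.52 in replicate 1 and 7.39 in replicate 2, Notch2 held 67.2% ± 2.6, Notch1 20.4% ± 0.48, Notch4 6.55% ± 1.8 and Notch3 5.91% ± 0.319. The summed receptors exceeded the summed ligands 1.59-fold in replicate 1 and 1.82-fold in replicate 2, a log2 ratio of 0.77 ± 0.14. With the deposited posterior mean TPM in place of TPM, the share of Notch2 was 46.4%, that of Notch1 35.1% and that of Notch4 14.4%. Over protein-coding transcripts only, Notch4 held 3.67%.

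**Figure D2:**
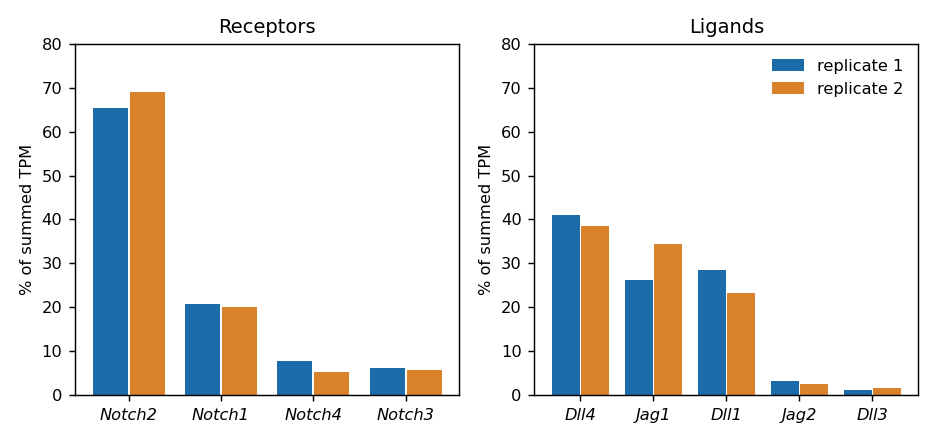
Percent of the summed TPM held by each of the 4 Notch receptors (left) and each of the 5 ligands of the Delta and Jagged type (right), with bars for replicate 1 and replicate 2. Notch2 holds 65.3% and 69.0% of receptor TPM, whereas Dll4, Jag1 and Dll1 divide most of the ligand TPM.

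The transcript tables showed that the level of Notch4 depended on which of its transcripts were included. Of 12 annotated transcripts of Notch4, 1 is annotated as protein-coding, and it held 53.6% ± 3.34 of the TPM but 93.7% of the expected counts of the gene. The 11 others held 6.6 of 75 counts in replicate 1 and 1.71 of 45 counts in replicate 2, yet 0.22 and 0.19 TPM, since a count on a short transcript is worth more TPM. On protein-coding transcripts alone Notch4 stood at 0.28 and 0.20 TPM, below Notch3 at 0.40 and 0.42 TPM, and the ranges no longer overlapped. This restriction was chosen after the data were seen.

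For Notch1 the deposited posterior mean stood well above the TPM. Its leading transcript is protein-coding and held 93.9% ± 1.91 of the TPM and 97.2% of the counts. Of its 11 annotated transcripts, 9 had no count in either library, but the posterior mean gave these 1.91 TPM in replicate 1 and 2.32 TPM in replicate 2. The posterior mean of the gene was 3.22 and 3.75 TPM, and its TPM of 1.35 and 1.48 lay below the lower bounds of the deposited credible intervals, 2.03 and 2.36 TPM. In 131 of the 11194 protein-coding genes with at least 1 TPM in both libraries (1.17%) did the TPM lie below that bound in both, and in 3 of the 11194 the posterior mean was more than 2 times the TPM, with Notch1 among these 3. The posterior mean of Notch4, 1.45 and 1.39 TPM, was also above its TPM, whose values lay below the lower bounds of 0.797 and 0.702 TPM.

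The remaining members gave little room for such a difference. Notch2, Notch3, Jag2, Sox9 and Sox4 have a single annotated transcript each. The protein-coding transcript held 100% of the TPM for Dll4, 97.2% ± 1.06 for Hes1 and 97.1% ± 4.04 for Jag1.

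**Figure D3:**
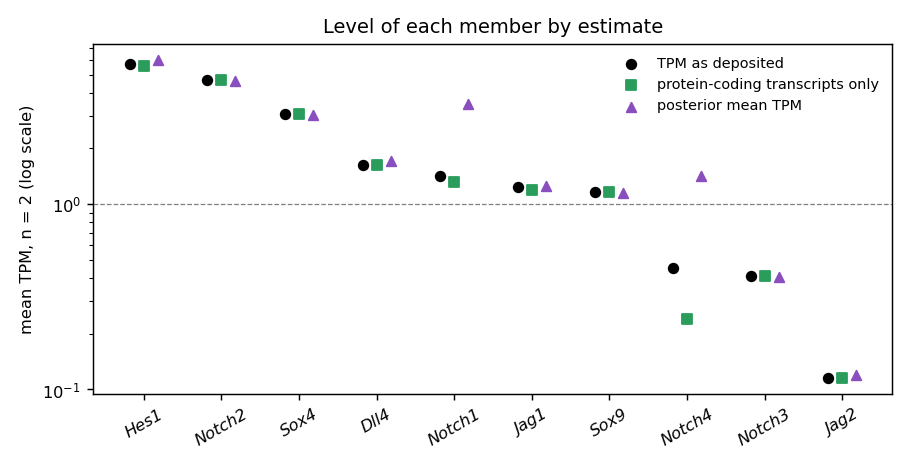
Mean TPM over the 2 libraries on a log axis for each of the 10 genes, as deposited (circles), over protein-coding transcripts only (squares) and as the deposited posterior mean (triangles). The 3 estimates nearly coincide except for Notch1, with 1.42, 1.32 and 3.49 TPM, and Notch4, with 0.45, 0.24 and 1.42 TPM.

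Genes that prepare and cut the receptors had higher medians than the receptors, whose own median was 0.933 ± 0.0141 TPM. All 6 sugar transferases that modify Notch passed 1 TPM in both libraries, against 52.1% of protein-coding genes. The counts of the 6 ran from 264 to 1036, and the list had a median of 6.65 ± 0.226 TPM. Pofut1 and Poglut1, which add the first fucose and glucose to the receptor, stood at 3.07 ± 0.0424 and 11.1 ± 0.827 TPM. The Fringe enzymes, which extend the fucose and shift the response between Delta and Jagged ligands, were all present, with Rfng at 11.9 ± 2.68 TPM, Lfng at 6.91 ± 0.339 TPM and Mfng at 6.38 ± 0.113 TPM. Eogt was the lowest of the group at 1.86 ± 0.099 TPM.

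The cleavage list had a median of 17.9 ± 1.27 TPM, and 9 of its 10 genes passed 1 TPM in both libraries, on 65.04 to 12476 counts over the list. Adam10, the main protease of the first cut, stood at 74.0 ± 11.0 TPM from 11230 and 12476 counts, 4.91 ± 0.107 times the TPM of Adam17 (15.1 ± 1.92 TPM) and 15.8 ± 0.35 times that of Notch2. Furin, which cuts the receptor on its way to the surface, was lower at 3.57 ± 0.205 TPM. Of the gamma-secretase subunits, Psenen stood at 79.6 ± 0.0636 TPM and Ncstn at 32.4 ± 3.03 TPM, and the catalytic subunit Psen2 stood at 20.8 ± 1.07 TPM. Aph1a at 12.8 ± 0.813 TPM was 8.03 ± 0.545 times Aph1b at 1.60 ± 0.00707 TPM, and Aph1c, a close copy of Aph1b whose counts were divided by the model, had 1.11 and 0.98 TPM.

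Genes that act on ligands and receptors by ubiquitin or in trafficking had a median of 3.53 ± 0.396 TPM, with 10 of 12 above 1 TPM in both libraries, and their counts ran from 7 to 2541. Dtx3, the ubiquitin ligase Itch and the inhibitor Numb were the highest at 16.2 ± 1.54, 15.2 ± 2.62 and 12.8 ± 3.08 TPM. Dtx1, itself a target of Notch in lymphocytes, was the lowest with 15 and 7 counts, and Neurl1a was also below 1 TPM, with 94 and 107 counts. Mib1, the ligase that ligands need in order to signal, stood at 5.40 ± 0.792 TPM.

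In the nuclear complex 6 of 7 genes passed 1 TPM in both libraries, and the list had a median of 4.51 ± 0.615 TPM. Snw1, which also serves in splicing, stood at 63.2 ± 6.08 TPM, the acetyltransferase Crebbp at 8.48 ± 0.12 TPM and Rbpj, the DNA-binding partner of every Notch receptor, at 7.58 ± 1.38 TPM from 1332 and 1551 counts. The Mastermind genes were at the low end, with Maml2 at 1.29 ± 0.12 TPM, Maml1 at 1.18 ± 0.148 TPM and Maml3, the exception below 1 TPM, at 0.785 ± 0.233 TPM from 144 and 191 counts. Of the co-repressors 9 of 10 exceeded 1 TPM, with Hdac1, Ncor1 and Cir1 highest at 112 ± 3.64, 70.2 ± 1.2 and 21.9 ± 1.44 TPM. Rbpjl, a relative of Rbpj made in the pancreas, had 3 and 3.05 counts.

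Over the 9 lists of the pathway together, 48 of 65 genes reached 1 TPM in both libraries, and the median was 3.53 ± 0.184 TPM. Among 21474 protein-coding genes 52.1% reached that level, which is the share to set beside the count of each list. The median over protein-coding genes was 1.45 TPM. These lists were chosen with earlier results of these data known.

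**Figure D4:**
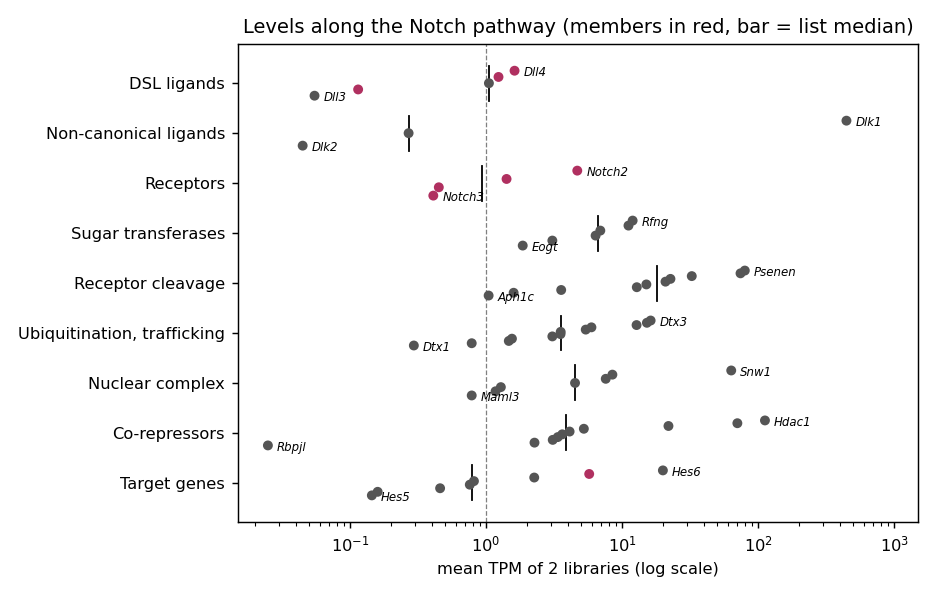
Mean TPM over the 2 libraries (log axis) of each measured gene of 9 pathway lists, with the 8 members that belong to these lists in red, a black bar at the list median, the highest and lowest gene named and a dashed line at 1 TPM. The cleavage list has a median of 17.9 TPM, and the receptors and target genes have medians of 0.933 and 0.788 TPM.

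The 8 genes listed as targets of the pathway were mostly low, and Hes1 was second to Hes6 among them. Whether Hes6 responds to Notch in this tissue was not tested. Hes1 (ENSMUSG00000022528.7, chromosome 16, 30064384 to 30067796, plus strand), a repressor that is the best-studied direct target of Notch in the biliary lineage, had 5.30 TPM from 270 counts in replicate 1 and 6.15 TPM from 279 counts in replicate 2. Both values lay above those of every other member. Hes6, which opposes Hes1 and is known in nerve and muscle precursors, was higher at 19.9 ± 0.495 TPM from 969 and 841 counts, 3.50 ± 0.454 times the TPM of Hes1. Nrarp, a target that damps the signal, stood at 2.26 ± 0.0707 TPM from 207.8 and 195.34 counts.

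The other 5 genes of this list were below 1 TPM in both libraries. Heyl stood at 0.815 ± 0.134 TPM from 97 and 108 counts, Hey1 at 0.76 ± 0.0849 TPM from 68 and 52 counts and Hey2 at 0.46 ± 0.0849 TPM from 37 and 43 counts. Hes7 had 11 and 9 counts and Hes5 had 6 and 3 counts. The Hey genes act in heart and vessels, Hes5 acts in neural precursors and Hes7 in somites.

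The transcription factors of the ductal plate were present, Sox4 above Sox9. Sox9 (ENSMUSG00000000567.5, chromosome 11, 112782224 to 112787760, plus strand), the earliest marker of the ductal plate, had 0.95 TPM from 145 counts in replicate 1 and 1.38 TPM from 190 counts in replicate 2. Sox4 (ENSMUSG00000076431.4, chromosome 13, 28948919 to 28953713, minus strand), which acts together with Sox9 in bile duct formation in mice and is also expressed in blood progenitors and many embryonic tissues, had 2.42 TPM from 429.93 counts and 3.72 TPM from 593.35 counts. The TPM of Sox4 was 2.62 ± 0.105 times that of Sox9. The count of Sox4 had a posterior SD of 13.96 in replicate 1 and 16.63 in replicate 2, so part of its reads were shared with other entries by the model. Gm26735, a long non-coding RNA on the opposite strand that overlaps Sox4, had 182.07 and 163.65 counts, and no source used here says whether counting used strand.

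Related Sox genes were set beside them. Of the other members of the Sox4 group, Sox11 stood at 2.11 ± 0.283 TPM from 595 and 645 counts and Sox12 had 1.47 TPM in each library from 240 and 212 counts. Of the Sox9 group, Sox8 had 19 and 21 counts and Sox10, a neural crest gene, 6 and 5 counts.

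Other genes listed for the ductal plate and bile duct spanned a wide range. With Sox9 and Sox4 left out, 9 of 14 passed 1 TPM in both libraries, against 52.1% of protein-coding genes. Their medians were 2.34 TPM in replicate 1 and 2.39 TPM in replicate 2. The highest were Cdh1, which hepatoblasts share, at 13.2 ± 3.27 TPM, the integrin Itga6 at 7.54 ± 1.65 TPM and Prom1 at 7.23 ± 1.3 TPM, both also found on other cells. The genes with the lowest TPM were Cftr at 7 and 15 counts, Cldn4 at 9 and 17 counts and Pkhd1 at 24 and 37 counts.

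By mean TPM, the order of the members was Hes1, Notch2, Sox4, Dll4, Notch1, Jag1, Sox9, Notch4, Notch3 and Jag2. Of the 9 neighbouring pairs, 6 were separate in the sense that their ranges over the libraries did not overlap. The exceptions were Notch1 with Jag1, Jag1 with Sox9, and Notch4 with Notch3. The widest steps were from Notch3 to Jag2, 3.57-fold, and from Sox9 to Notch4, 2.59-fold. By posterior mean TPM the order differed, with Notch1 in rank 3 at 3.49 TPM, above Sox4 at 3.03 and Dll4 at 1.71 TPM, and Notch4 in rank 6 at 1.42 TPM, above Jag1 at 1.26 and Sox9 at 1.16 TPM, so the steps from Dll4 to Notch1 and from Sox9 to Notch4 turned.

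Between the replicates most members differed little. Ratios were taken as replicate 1 over replicate 2 on expected counts with 0.5 added, after scaling by TMM, where the mean count was 10 or more, with exact 95% binomial counting intervals. The median log2 ratio of the members was -0.02, with a range from -0.46 to 0.73, and 6 were lower and 4 higher in replicate 1. Past 1.5-fold, 1 member was higher in replicate 1 and 0 were lower, whereas among 15997 genes 4.73% were higher and 3.43% lower by that much. For differences of 25%, 2 members were higher and 2 lower, against 11.6% and 9.4% of these genes, and at 2-fold none of the 10 was higher or lower, against 1.56% and 1.2%. With 1 library on each side there is no test, and the interval covers counting error only.

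Notch4 was the member past 1.5-fold, at 1.66-fold higher in replicate 1 (log2 ratio 0.73, interval 0.19 to 1.30) from 75 and 45 counts. Sox4 and Sox9 had the lowest ratios. Sox4 had a log2 ratio of -0.46 (interval -0.65 to -0.28), or 1.38-fold higher in replicate 2, and Sox9 one of -0.39 (interval -0.71 to -0.07), or 1.31-fold. Notch2 had a ratio of -0.11 (interval -0.20 to -0.01). The intervals of Dll4 (0.27), Jag2 (0.43), Notch3 (0.07), Notch1 (0.00), Hes1 (-0.05) and Jag1 (-0.16) included 0. On the TPM scale 1 member, Sox4, was lower past 1.5-fold and 0 were higher, against 4.79% and 2.32% of these genes. Scaled to the spike-ins, which moved the median of all genes to 0.64, the log2 ratios of Sox4 and Sox9 were 0.17 and 0.25, so these were positive but still below that median. On that scale 6 members were higher past 1.5-fold and 0 lower, against 59.5% and 0.763% of these genes.

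Most other genes of the ductal list were also lower in replicate 1. Without Sox9 and Sox4, 13 of 14 genes of the list were lower in replicate 1, with a median log2 ratio of -0.35, against 49.7% lower and a median of 0.00 over all 15997 genes. Past 1.5-fold, 5 were lower, Epcam (43 and 123 counts), Pkhd1, Cldn4 and Cftr among them, and 1 was higher, the secreted phosphoprotein Spp1 (160 and 95 counts). Summed over the 14 genes the TPM was 41.4 in replicate 1 and 56.4 in replicate 2, and no gene was at 0. Of the 8 hepatoblast markers 5 were lower and 3 higher in replicate 1, with a median log2 ratio of -0.09. Prox1 was the lowest of them at -0.38 (interval -0.50 to -0.26). Among heart muscle markers 7 of 7 were lower in replicate 1, with a median log2 ratio of -2.48 and summed TPM of 36.8 and 93.9, and none was at 0. The part of these lists in the result for Sox9 and Sox4 was not tested.

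Vascular markers were set beside Dll4, Notch4 and Notch3, whose log2 ratios were 0.27, 0.73 and 0.07. Of the 8 endothelial markers 8 were lower in replicate 1, against 49.7% of all 15997 genes. Their median log2 ratio was -0.22 and their summed TPM was 78.5 and 97.5, and the counting intervals of Emcn and Eng included 0. Of the 8 arterial markers, Dll4 and Hey1 among them, 7 were higher, with a median of 0.19 and summed TPM of 11.6 and 11.2, and Bmx was the exception with 14 and 24 counts. With Dll4 left out, 6 of 7 were higher, with a median of 0.16 and summed TPM of 9.93 and 9.63. The counting interval of each of the 8 arterial markers included 0, so no single arterial ratio was separate from counting error. Mural cell markers were split, 4 lower and 4 higher, with a median of 0.01 and summed TPM of 40.4 and 40.8. No marker of these 3 lists was at 0, and none of them passed 1.5-fold except Bmx and Rgs5, both lower in replicate 1. Among all 15997 genes 3.43% were lower and 4.73% higher by that much. Rgs5 had 32 and 49 counts, and its counting interval (-1.30 to 0.06) included 0. No difference between these lists was tested, and neither was their part in the ratios of Dll4, Notch4 and Notch3.

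**Figure D5:**
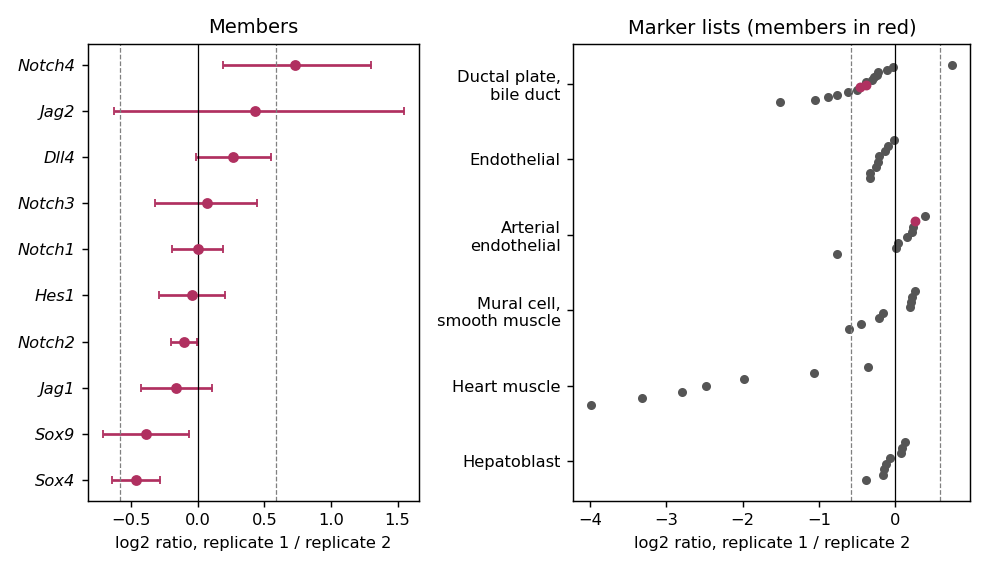
Log2 ratio of replicate 1 over replicate 2 after TMM scaling for the 10 members with exact 95% binomial counting intervals (left) and for each measured gene of 6 marker lists (right, members in red); dashed lines mark 1.5-fold. Sox4 and Sox9 lie at -0.46 and -0.39, and Notch4 lies at 0.73. With Sox4 and Sox9 left out, 13 of 14 genes of the ductal list are below 0, against 49.7% of all 15997 genes. Scaled to the spike-ins, Sox4 and Sox9 are positive, at 0.17 and 0.25, and the median of all genes is 0.64.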

How the data were processed

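The 2 libraries of total RNA, both of 1 group, were analysed from their gene and transcript tables. Per the deposited readmes, reads were assigned to mm10 with GENCODE release M4, and the sources used here name neither aligner nor quantifier. The expected counts, per the file headers, are the authors' model estimates and carry a posterior SD. The deposited TPM and posterior mean TPM are scaled so that every library has an equal sum over all entries, spike-ins included. FPKM columns and the percent of a gene in each transcript were deposited by the authors and not used. Transcript lengths, posterior SDs and bounds are as deposited.

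Symbols, biotypes and coordinates came from GENCODE release M21 (GRCm38, the assembly of mm10), which named 42462 of 43346 genes; spike-ins (96) were left out. Expected counts were rounded for TMM in edgeR 4.0.16 and for DESeq2 1.42.0 size factors (R 4.3.3). Python 3.11.15 with scipy 1.17.1, pandas 2.3.3, numpy 2.4.6 and, for figures, matplotlib 3.10.9 served for the rest. The ratio step was tested on simulated counts. The members and lists were chosen with earlier results of these data known. Named genes were the members, the ligands, target, cleavage and sugar transferase genes in full, and for other pathway lists the 3 highest, the lowest and those below 1 TPM; lists of other cell types are given by counts and medians, and any other gene named, among them Mib1, Maml1, Maml2, Epcam, Spp1 and Rgs5, was chosen after its value was seen. Some genes that the rule names are not reported here. Alternatives covered the scaling, filter, offset, fold, TPM threshold, pseudocount, the posterior mean, counts against TPM and each replicate alone. Lists of portal mesenchyme, macrophage, megakaryocyte, lymphoid, pancreas and gut, and neural genes are given in the closing observations.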

Additional observations from a re-analysis of the deposited data

How the results depend on the processing

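The count of 6 members at 1 TPM became 3 at a threshold of 2 TPM. Over expected counts, posterior mean TPM and protein-coding transcripts, the Notch2 share was 73.3%, 46.4% and 70.3%. Over counts Jag1 held 41.5% and Dll4 36.9% of the ligands, so their order turned, and over posterior means Dll4 held 36.0%. The log2 ratio of receptors over ligands was 2.05 over counts and 1.06 over posterior means. The median log2 level of the members was 1.21 with a pseudocount of 1 and 0.73 with posterior means. The number of members past the fold was 2 lower and 2 higher for differences of 25% and 0 higher at 2-fold. It was 1 lower and 0 higher on TPM, and 6 higher under spike-in scaling, where 59.5% of all genes were; the shares of all genes at each setting stand beside these counts in the results. Spike-in scaling moved the median of all genes by 0.64 and that of the members to 0.61, and there the ratios of Sox4 and Sox9 were 0.17 and 0.25, positive in place of negative. Under DESeq2 size factors, total counts, no count filter, a filter of 50 counts and an offset of 5 counts the 10 ratios stayed within their counting intervals, except that Jag2 has no value with a mean count of at least 50. With 1 replicate alone 6 or 7 members and 48 or 50 of the 65 pathway genes reached 1 TPM; for levels and shares, a single replicate of 2 cannot differ from the mean by more than the SD, so leaving one out shows nothing of their stability. Counts of 19 and 14 limit Jag2, 75 and 45 limit Notch4, and TPM is deposited to 2 decimals. No paired analysis was possible because there is 1 group.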

Other observations

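Markers of other cell types that could carry Notch genes were present at very different levels. For the counts below, the share of protein-coding genes at 1 TPM or more in both libraries was 52.1%. The portal and septal mesenchyme list had a median of 23.9 ± 1.17 TPM with 6 of 8 genes above 1 TPM in both libraries, led by Col3a1, Col1a1 and Lum, and its lowest gene Thy1 had 4 counts in each library. The megakaryocyte and macrophage lists had all 4 genes each above 1 TPM, with medians of 116 ± 2.69 and 15.8 ± 0.891 TPM. Of the 4 lymphoid genes 1 exceeded 1 TPM, Cd79b at 3.64 ± 0.453 TPM, and Cd3e had no count. The pancreas and gut list had a median of 0.19 ± 0.0141 TPM, and 2 of its 7 genes exceeded 1 TPM in both libraries, Cela1 at 5.51 ± 0.834 TPM from 232 and 168 counts and Barx1 at 1.06 ± 0.0566 TPM from 54 and 45 counts, whereas Ptf1a had no count. The neural list had a median of 0.545 ± 0.152 TPM, and 2 of its 6 genes exceeded 1 TPM in both, Stmn2 at 3.83 ± 1.71 TPM from 116 and 83 counts and Tubb3 at 1.52 ± 0.304 TPM from 116 and 78 counts, whereas Sox2 had 3 and 2 counts.

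Antisense or divergent transcripts overlap several members on the opposite strand. Gm13568 and 0610009E02Rik at Notch1 had 28.79 and 18.68 counts and 52.74 and 47.3 counts. Gm14207 at Dll4 had 17 and 11 counts, and Gm17276 at Notch3 had 14.59 and 22.23 counts. The posterior SD of the Notch1 count was 5.35 and 6.17, and that of the Notch3 count was 0.71 and 0.96.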
